A study of Mus musculus with 12 samples.

Results

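The nuclear genes of the respiratory chain and ATP synthase were examined across 12 mouse lung tumors. Members were all symbols of the deposited count table that begin with Nduf, Uqcr, Cox4 to Cox8 or Atp5, together with Sdha, Sdhb, Sdhc and Sdhd. Ndufs5 and symbols that end in -ps and a number were left out. The rule found 92 members among 39017 listed genes, of which 42 belong to complex I, 4 to complex II, 8 to complex III, 20 to complex IV and 18 to complex V. It also took in 7 complex I assembly factors (Ndufaf genes), 3 genes with an Atp5 name that are not ATP synthase subunits, and Ndufa4, which is now placed in complex IV.

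Complex I takes electrons from NADH and complex II, succinate dehydrogenase, takes them from succinate. Both pass them through complex III to complex IV, cytochrome c oxidase, which reduces oxygen, and complex V uses the resulting proton gradient to make ATP. Each complex except complex II also holds subunits made from mitochondrial DNA, and the nuclear genes that complete them lie scattered over the chromosomes.

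All mice were C57BL/6 and carried KrasLSL-G12D/WT, p53Fl/Fl and CCSP-rtTA, an rtTA gene driven by the club cell promoter (KP), and KPG1 mice carried in addition Glut1Fl/Fl, floxed alleles of the glucose transporter gene Slc2a1. Every mouse, controls included, received 6000 lentiviral units of Lenti.TRE-PPARaD13_PGK-Cre, in which the PGK promoter drives Cre and a doxycycline-dependent TRE promoter drives PPARαΔ13, a dominant negative form of the nuclear receptor PPARα. Tumors labelled KP-PPARαΔ13 and KPG1-PPARαΔ13 came from mice fed doxycycline at 625 mg/kg for 15 days, and those labelled KP and KPG1 from mice on a regular diet, so diet and induction changed together. Tumors were taken 26 weeks after tumor initiation, and the CD45-negative cells of each were profiled by poly(A) RNA-seq, with 3 tumors in each of 4 groups. The 12 tumors came from 9 mice, since tumors 1 and 2 of KP, 1 and 2 of KPG1, and 1 and 3 of KPG1-PPARαΔ13 shared a mouse. The 3 KP tumors came from female and the 3 KPG1 tumors from male mice, so sex and genotype cannot be told apart on the regular diet. On doxycycline, KP-PPARαΔ13 tumors 1 and 3 came from male mice and tumor 2 from a female. KPG1-PPARαΔ13 tumors 1 and 3 came from a female mouse and tumor 2 from a male. The make-up by sex therefore also shifted with diet, in opposite directions in the 2 genotypes.

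Libraries held 25263794 to 32654223 counted reads. Slc2a1 was at 35.3 to 57.7 CPM (counts scaled to the library total) in KP, 108.1 to 152.5 CPM in KP-PPARαΔ13, 30.2 to 64.0 CPM in KPG1 and 23.7 to 54.5 CPM in KPG1-PPARαΔ13, with reads of undeleted exons included. Ppara, which can also collect reads of the transgene, was at 9.54 to 15.7 CPM in KP and 2.71, 64.6 and 246.1 CPM in the tumors labelled KP-PPARαΔ13, and at 8.90 to 19.2 CPM in those labelled KPG1-PPARαΔ13 against 7.24 to 15.3 CPM in KPG1. The labels were therefore not borne out by these 2 genes in every tumor, and every direction given here is one between labelled groups. Summed CPM of 8 lung tumor epithelium markers ranged from 19515 to 62362, of 6 leukocyte markers from 191.8 to 4271, and of 5 endothelial markers from 82.2 to 513.4. All 13 protein genes of the mitochondrial genome were listed at 0 in every tumor, so only the nuclear part of each complex could be read.

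Levels per transcript length (TPM, with exon lengths of GENCODE M21) spanned a wide range within each complex. The highest mean TPM over the 12 tumors was that of Atp5a1, the catalytic-ring α subunit of ATP synthase, at 911.5 (551.0 to 1654 CPM in single tumors). It was followed by the β subunit Atp5b at 647.9 TPM, by Cox4i1 at 622.6 TPM and Cox6b1 at 556.6 TPM, both general subunits of complex IV, and by the supercomplex factor Cox7a2l at 555.5 TPM. Median TPM was 78.9 in complex I, 158.8 in complex II, 186.7 in complex III and 158.7 in complex V. In complex IV the 11 general subunits had a median of 287.9 TPM and the 8 tissue-restricted isoforms one of 4.54 TPM. The 7 complex I core subunits, which carry the electron path, had a median of 81.5 TPM, the 28 accessory subunits 97.2 TPM, and the 7 assembly factors 11.8 TPM. Within complex II the order was Sdhd (288.7 TPM), Sdha (219.4 TPM), Sdhc (98.1 TPM) and Sdhb (70.6 TPM), although the subunits assemble in equal numbers.

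**Figure D1:**
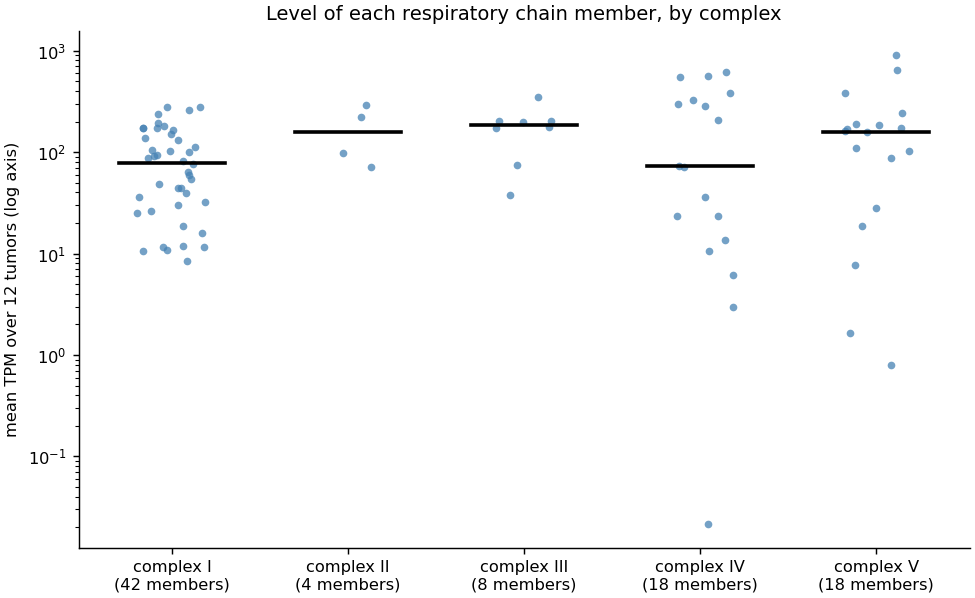
Each point is 1 member with reads, at its mean TPM over 12 tumors on a log axis, by complex, and the bars are medians over the members with reads. Levels within a complex spread over more than the medians of the complexes, and complexes IV and V hold both the highest members (Atp5a1 at 911.5 TPM) and members near or under 1 TPM.

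Some low values touch genes whose reads can be shared. Of the members, 30 had a stretch of at least 85 bases at 97% identity or more in another gene, and for 7 at least 50% of the transcript was covered in that way. Atp5l, a membrane subunit of ATP synthase, was at 0.80 TPM with 72.2% of its transcript shared, and Atp5o, Ndufs3, Atp5h, Atp5f1 and Uqcrb had 92.0%, 83.8%, 71.1%, 64.6% and 62.8% shared. How the counting split such reads was not given, so the levels of these members are uncertain. Cox7b2 and Cox8b had no read in any tumor, Cox8c had reads in KP tumor 1 alone (0.033 CPM), and Atp5l2, annotated as a processed pseudogene, reached 0.45 CPM at most. These 4 were the only members under the filter on low counts, and 88 members entered the tests among 16527 genes.

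Over the 12 tumors, the ratio of the highest to the lowest CPM had a median of 2.02 among the 87 members with a mean of at least 1 CPM. It was smallest for the complex I accessory subunit Ndufb2 (1.41) and largest for Cox6a2 (15.8). The steadiest members elsewhere were Sdhd in complex II (1.71), Uqcrh in complex III (1.57), Ndufa4 in complex IV (1.69) and the c-ring gene Atp5g3 in complex V (1.52). The summed TPM of all members lay between 11664 in KPG1 tumor 2 and 15722 in KPG1-PPARαΔ13 tumor 1. It was 12633, 12207 and 12543 in KP, 14731, 13962 and 11677 in KP-PPARαΔ13, 12227, 11664 and 14026 in KPG1, and 15722, 13439 and 13109 in KPG1-PPARαΔ13, so all groups overlapped except that the doxycycline tumors of the floxed mice all lay above the KP tumors.

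KP tumor 2 stood apart in the members taken one by one. There 75 of 88 members were under their own mean over the 12 tumors, with a median of -0.28 on the log2 scale (CPM with 0.5 added), and the medians of the complexes ran from -0.31 in complex II to -0.20 in complex III. In the other 11 tumors the median of the members was between -0.12 in KPG1 tumor 1 and 0.19 in KPG1 tumor 3. The lung tumor epithelium list was also lowest in KP tumor 2, at 19515 CPM. Next lowest on this list were KPG1-PPARαΔ13 tumor 1 (23250 CPM) and KP-PPARαΔ13 tumors 2 and 1 (24479 and 24531 CPM). The members' medians there were 0.12, 0.10 and 0.06. KPG1-PPARαΔ13 tumor 2 followed at 28728 CPM, with a median of -0.03. The part of this list in the members' low level in KP tumor 2 was not tested. A smaller share of a cell type and less RNA per cell cannot be told apart in these bulk samples.

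Glut1 wild-type tumors labelled for PPARαΔ13 were compared with KP tumors first, by edgeR's quasi-likelihood test with Benjamini-Hochberg adjustment over all genes tested. In tumors labelled KP-PPARαΔ13 against KP no member passed an adjusted p of 0.05, where 0% of all genes tested were called higher and 0.00605% lower. At an unadjusted p under 0.05, 5 members were higher (5.32% of all genes tested were) and 2 lower (6.03%), with 7 and 0 by limma voom and 6 and 2 by DESeq2, and neither tool called a member. Shares of all genes called or under this p, here and below, are those of edgeR. The counts by limma voom and DESeq2 are given without one. The median log2 fold change was 0.13 over the 88 members and -0.008 over all genes, and it was 0.014 for the members without KP tumor 2. Beside this, 5 of 5 fibroblast markers (median 1.18, 3 at an unadjusted p under 0.05) and 3 of 4 erythroid markers (median 1.41, 3 at an unadjusted p under 0.05) were above 0 and none was called, with sums of 265.6 to 528.7 against 112.1 to 241.4 CPM and of 774.8 to 1266 against 306.0 to 747.1 CPM, and their part in the members' values was not tested. Groups did not overlap for 12 members that were higher (6.55% of all genes) and 4 that were lower (6.70%). The smallest unadjusted p belonged to Atp5o, a stalk subunit of ATP synthase with 92.0% of its transcript shared with copies, at 84.4, 78.0 and 73.2 CPM in KP and 122.4, 115.1 and 89.3 CPM in those labelled KP-PPARαΔ13 (log2 fold change 0.47, SE 0.16, edgeR adjusted p = 0.333). Ndufab1, the acyl carrier protein of complex I, lay lower without overlap, at 17.9, 29.4 and 22.2 against 16.9, 15.1 and 16.4 CPM (-0.52, SE 0.22, edgeR adjusted p = 0.415).

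In Glut1-floxed tumors edgeR called no member for the same labelled contrast either. For tumors labelled KPG1-PPARαΔ13 against KPG1, 0.00605% of all genes were called higher and 0% lower. At an unadjusted p under 0.05, 7 members were higher (6.25% of all genes) and 1 lower (4.50%), with 6 and 1 by limma voom and 8 and 1 by DESeq2. The median log2 fold change was -0.008 over the members and 0.023 over all genes, with 44 members on each side of 0. Groups did not overlap for 11 members higher (11.2%) and 9 lower (9.41%). Complex III had the highest median of the complexes, 0.24, with 6 of 8 members above 0. The member with the smallest unadjusted p was Cox5a, a general subunit of complex IV (ENSMUSG00000000088; mm10 chromosome 9, 57521274 to 57532426, plus strand). It had 35.1, 36.7 and 33.3 CPM in KPG1 and 63.7, 49.8 and 46.5 CPM in the tumors labelled KPG1-PPARαΔ13. All tumors on doxycycline were above all of the others (log2 fold change 0.61, SE 0.17, edgeR adjusted p = 0.420), and DESeq2 called it at an adjusted p of 0.0450, the 1 member it called there.

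Averaged over both genotypes, 4 members of chromosome 9 had the smallest unadjusted p among members higher in the doxycycline tumors, and none was called by edgeR (0.0121% of all genes called higher, 0.00605% lower). At an unadjusted p under 0.05, 6 members were higher (5.14%) and 1 lower (4.91%), with 6 and 0 by limma voom and 6 and 1 by DESeq2. Cox5a was at 33.5 to 37.2 CPM in the 6 tumors on the regular diet and at 44.0 to 63.7 CPM in the 6 on doxycycline, and was the 1 member with no overlap, where 0.266% of all genes had none in that direction and 0 members and 0.224% of all genes had none in the other. Its log2 fold change was 0.51 (SE 0.12, edgeR adjusted p = 0.231), and DESeq2 called it at an adjusted p of 0.00518. A near-identical copy of 42.0% of the Cox5a transcript lies in another gene. Uqcrc1, a core protein of complex III (ENSMUSG00000025651; chromosome 9, 108936633 to 108949623, plus strand), had 79.4, 78.8 and 78.9 CPM in KP, 105.2, 96.3 and 86.3 CPM in the tumors labelled KP-PPARαΔ13, 55.8, 90.7 and 71.6 CPM in KPG1 and 121.7, 107.3 and 106.2 CPM in KPG1-PPARαΔ13. Only KPG1 tumor 2 on the regular diet lay above the lowest doxycycline tumor (0.45, SE 0.13, edgeR adjusted p = 0.310). Sdhd, a membrane anchor of complex II (ENSMUSG00000000171; chromosome 9, 50596357 to 50603812, minus strand), had 78.8 to 107.3 CPM on the regular diet and 99.4 to 134.7 CPM on doxycycline (0.35, SE 0.11, edgeR adjusted p = 0.328). Cox7a2, the general isoform of a small complex IV subunit, had 59.4 to 81.8 and 74.2 to 108.6 CPM (0.33, SE 0.12, edgeR adjusted p = 0.402). The median over the members was 0.07, and 0.03 without KPG1-PPARαΔ13 tumor 1. In this average 3 of 4 erythroid markers were also higher at an unadjusted p under 0.05 (median 1.05, none called), and their part in the members' values was not tested. All 88 members lay between -0.35 and 0.51.

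**Figure D2:**
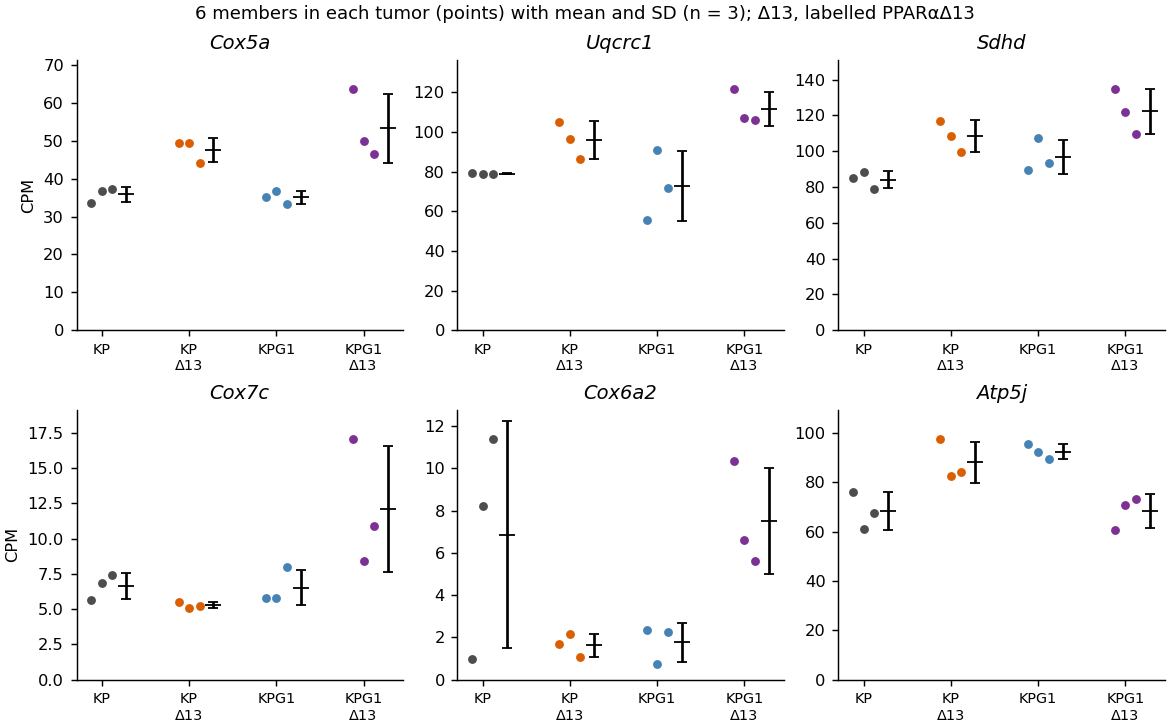
CPM of 6 members in each tumor (points) with the mean and SD of each group (n = 3), on axes that start at 0. For Cox5a all 6 doxycycline tumors (44.0 CPM or more) sat above all 6 others (37.2 CPM or less), whereas the order of the groups for Cox7c, Cox6a2 and Atp5j differed between floxed and wild-type tumors, and edgeR called none of the 6 members in any comparison.

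The floxed Glut1 genotype was compared on each diet. On the regular diet, tumors labelled KPG1 against KP had no called member (0.0242% of all genes called higher, 0.0121% lower). At an unadjusted p under 0.05, 4 members were higher (2.42%) and 2 lower (3.81%), with 4 and 2 by limma voom and 4 and 3 by DESeq2. Groups did not overlap for 10 members higher (4.82%) and 2 lower (5.13%), and 6 of those 10 carry an Atp5 name. The median log2 fold change was 0.11 over the members, -0.029 over all genes and 0.014 for the members without KP tumor 2. Atp5g2, which encodes the c-ring protein of ATP synthase, had 107.2, 80.7 and 45.2 CPM in KP and 117.9, 141.6 and 110.5 CPM in KPG1 (0.67, SE 0.27, edgeR adjusted p = 0.787). Ndufaf4, an assembly factor of complex I, had 11.7, 16.4 and 13.9 CPM in KP and 11.7, 6.20 and 9.25 CPM in KPG1 (-0.63, SE 0.29, edgeR adjusted p = 0.787).

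On doxycycline, tumors labelled KPG1-PPARαΔ13 against KP-PPARαΔ13 had no called member (0.0242% called higher, 0.00605% lower), with 4 members higher (5.25%) and 3 lower (4.44%) at an unadjusted p under 0.05. The numbers were 5 and 3 by limma voom and 6 and 5 by DESeq2. Groups did not overlap for 13 members higher (10.3%) and 12 lower (7.25%), and 7 of the 12 lower ones lie on chromosome 17. The 575 other genes of chromosome 17 with a mean of at least 5 CPM had a median log2 fold change of -0.37, beside -0.45 over its 7 members. On chromosome 13 the 404 other genes had a median of 0.45 and the 7 members one of 0.60. Of the 5 fibroblast markers 0 were above 0 in this comparison (median -1.26, 2 at an unadjusted p under 0.05), and their part in the members' values was not tested. Cox7c, a small general subunit of complex IV (ENSMUSG00000017778; chromosome 13, 86044816 to 86046904, minus strand), had 5.52, 5.10 and 5.26 CPM in the wild-type and 17.1, 8.39 and 10.9 CPM in the floxed tumors. Its log2 fold change was 1.19 (SE 0.31, edgeR adjusted p = 0.462), and DESeq2 called it at an adjusted p of 0.0178, its 1 call among the members there. A share of 32.9% of its transcript occurs in other genes. Averaged over both diets, no member was called for the floxed genotype (0.0303% called higher, 0.0182% lower). Groups did not overlap for 0 members in either direction (0.0968% of all genes higher, 0.0908% lower). At an unadjusted p under 0.05, 4 members were higher (2.15%) and 0 lower (2.37%), with 5 and 0 by limma voom and 6 and 0 by DESeq2, among them the complex III core protein Uqcrc2 (0.37, SE 0.14) and Cox6b1 of complex IV (0.31, SE 0.14; edgeR adjusted p = 0.976 for both).

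**Figure D3:**
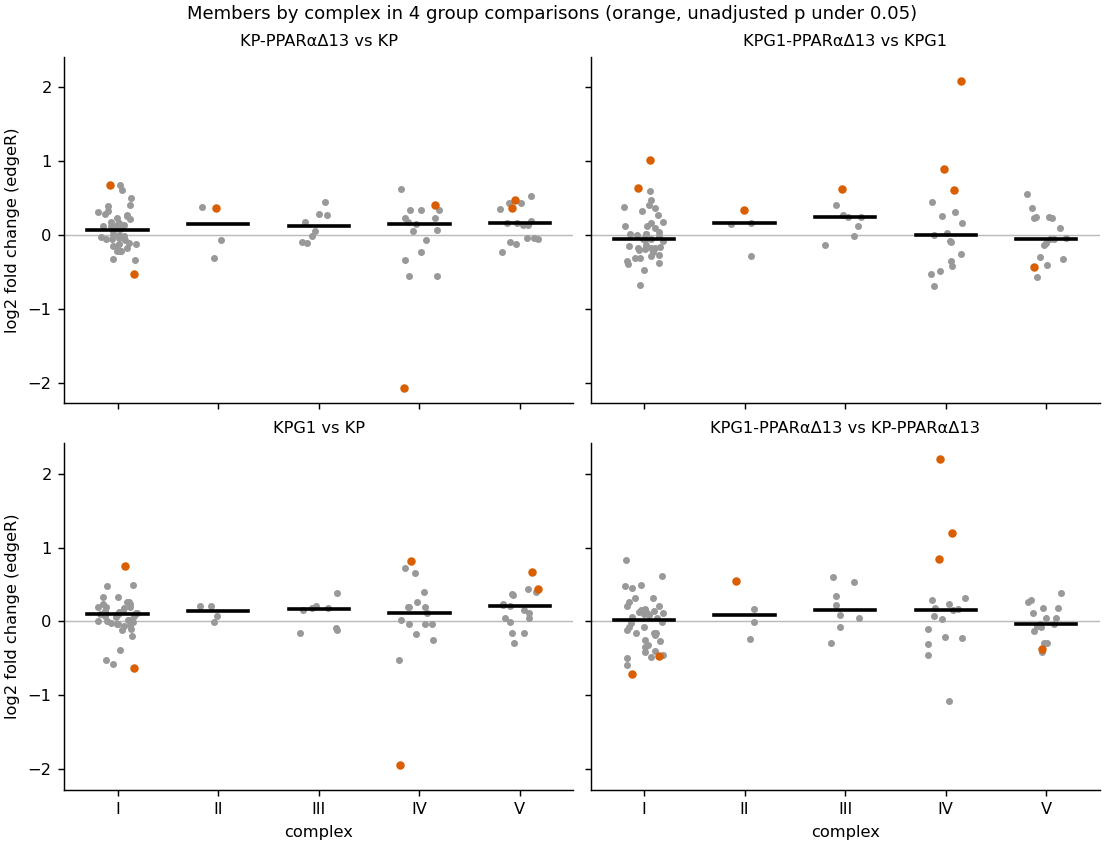
Log2 fold change of each member tested, by complex, in the 4 comparisons between groups. Bars are medians over members, orange points had an unadjusted p under 0.05, and no point passed the adjusted threshold in edgeR. Medians of the complexes lay between -0.05 and 0.24, and the points beyond 2 in either direction are Cox6a2.

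Whether the change with doxycycline differed between the genotypes was tested as an interaction, and no member or other gene was called by edgeR (0% in each direction). At an unadjusted p under 0.05, 3 members had a positive difference (6.87%) and 6 a negative one (4.94%), with 3 and 7 by limma voom and by DESeq2. Atp5j, which encodes coupling factor 6 in the stalk of ATP synthase (ENSMUSG00000022890; chromosome 16, 84827866 to 84835625, minus strand), had 76.3, 61.2 and 67.7 CPM in KP, 97.8, 82.7 and 84.3 CPM in the tumors labelled KP-PPARαΔ13, 95.4, 92.4 and 89.5 CPM in KPG1 and 60.5, 71.0 and 73.5 CPM in KPG1-PPARαΔ13. It thus lay higher with doxycycline in every wild-type tumor and lower in every floxed tumor (difference -0.80, SE 0.22, edgeR adjusted p = 0.335, DESeq2 adjusted p = 0.0243). Cox6a2, the heart and skeletal muscle isoform of a complex IV subunit (ENSMUSG00000030785; chromosome 7, 128205435 to 128206387, minus strand), had 0.96, 8.25 and 11.4 CPM in KP, 1.68, 2.16 and 1.07 CPM in the tumors labelled KP-PPARαΔ13, 2.36, 0.72 and 2.25 CPM in KPG1 and 10.4, 6.60 and 5.63 CPM in KPG1-PPARαΔ13. The difference was 4.15 (SE 1.06, edgeR adjusted p = 0.330, DESeq2 adjusted p = 0.00829). KP tumor 1 was among the low tumors, whereas the other 2 KP tumors lay above every tumor labelled KP-PPARαΔ13 or KPG1. On chromosome 19 the complex I core subunits Ndufs8 (-1.35, SE 0.47) and Ndufv1 (-0.99, SE 0.37) and the complex IV subunit Cox8a (-1.11, SE 0.50) had negative differences (edgeR adjusted p = 0.359, 0.375 and 0.423).

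Several members named above lie on 1 chromosome and belong to different complexes (4 on chromosome 9 and 3 on chromosome 19), and the level of each member was therefore set against that of its chromosome. For each tumor, a chromosome's level was the median, over its genes with a mean of at least 5 CPM that are no members, of log2 CPM (0.5 added) minus the gene's mean over the 12 tumors. Among the 82 members with at least 5 CPM, Pearson's r with the level of the own chromosome over 12 tumors had a median of 0.72 (-0.03 to 0.95), and 81 were above 0. Spearman's rho had a median of 0.68. For 58 members r, for 55 members rho and for 49 members both passed an adjusted p of 0.05 in two-sided permutation tests with 100000 resamples, adjusted over the 82 members, although tumors that shared a mouse are not independent. With group means removed, the median r was 0.70, with 80 above 0, and over the means of the 9 mice it was 0.73, with 78 above 0. Without the 2 tumors farthest from the median of each chromosome's level it was 0.55, with 77 above 0. The other 11445 genes had a median r of 0.56 with their own chromosome, and 89.4% of them were above 0. They were not put through the permutation tests, so the counts of members that passed have no share of other genes beside them.

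The relation was to the own chromosome. With the 19 others, a member's median r had a median of -0.02, and for 64 of 82 members the own chromosome gave the highest r of the 20 chromosomes. This ranking was not made for the other genes. The slope of a member on its chromosome's level had a median of 0.99, close to equal steps on the log2 scale. By complex the median r was 0.72 in complex I, 0.76 in complex II, 0.70 in complex III, 0.78 in complex IV and 0.70 in complex V. Subtracting the chromosome's level lowered the SD over tumors for 74 of the 82 members, from a median of 0.29 to 0.20, and for 77.8% of the other genes, from 0.36 to 0.29.

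Chromosome 19 showed the relation over the widest range. Its level was -0.67 in KP tumor 1 and -0.42 in KP tumor 2, which shared a mouse, 0.63 in KPG1 tumor 2, and between -0.34 and 0.38 in the other 9. Cox8a, the general isoform of a small complex IV subunit, had 24.4, 27.8 and 61.3 CPM in KP, 54.1, 50.6 and 70.7 CPM in the tumors labelled KP-PPARαΔ13, 49.5, 91.7 and 58.0 CPM in KPG1 and 37.0, 52.8 and 52.6 CPM in KPG1-PPARαΔ13. Its r was 0.95 and its rho 0.89 (n = 12; permutation adjusted p = 0.000937 and 0.00212), and r was 0.88 without the 2 farthest tumors. Ndufs8 and Ndufv1, the core subunits that carry iron-sulfur clusters and the NADH site, and the accessory subunit Ndufb8 had r of 0.90, 0.91 and 0.88 and rho of 0.93, 0.86 and 0.89 (permutation adjusted p of at most 0.00118 for r and 0.00375 for rho). The lowest values of all 4 fell in the same 2 tumors, and the highest in KPG1 tumor 2 for 3 of them, Ndufv1 being highest in KP-PPARαΔ13 tumor 1. On chromosome 13 the level stood at 0.59 in KPG1-PPARαΔ13 tumor 1, and that tumor held the highest value of all 7 members there, from complexes I to IV. Sdha had 409.6 CPM in it against 186.2 to 340.0 CPM in the other 11, and Uqcrfs1, the Rieske iron-sulfur protein of complex III, 147.5 against 51.4 to 98.4 CPM. On chromosome 18, at 0.70 in KP-PPARαΔ13 tumor 1, Atp5a1 reached 1654 CPM there against 551.0 to 957.7 CPM elsewhere (r = 0.94, rho = 0.90; permutation adjusted p = 0.000937 and 0.00212). On chromosome 8, at -0.55 in KPG1 tumor 1, Cox4i1 had 168.2 CPM there against 226.9 to 403.5 CPM elsewhere (r = 0.92, rho = 0.94; permutation adjusted p = 0.000937 and 0.00137). The 5 members with the lowest r were Ndufaf4 (-0.03, chromosome 4), Ndufa12 (0.03, chromosome 10), Ndufaf3 (0.07, chromosome 9), Ndufa9 (0.10, chromosome 6) and Ndufa4 (0.19, chromosome 6), with rho between -0.10 and 0.08 and permutation adjusted p of at least 0.580. The levels of chromosomes 4 and 6 spanned the least over the tumors (0.33 and 0.31), and the members on chromosome 6 had a median r of 0.22.

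**Figure D4:**
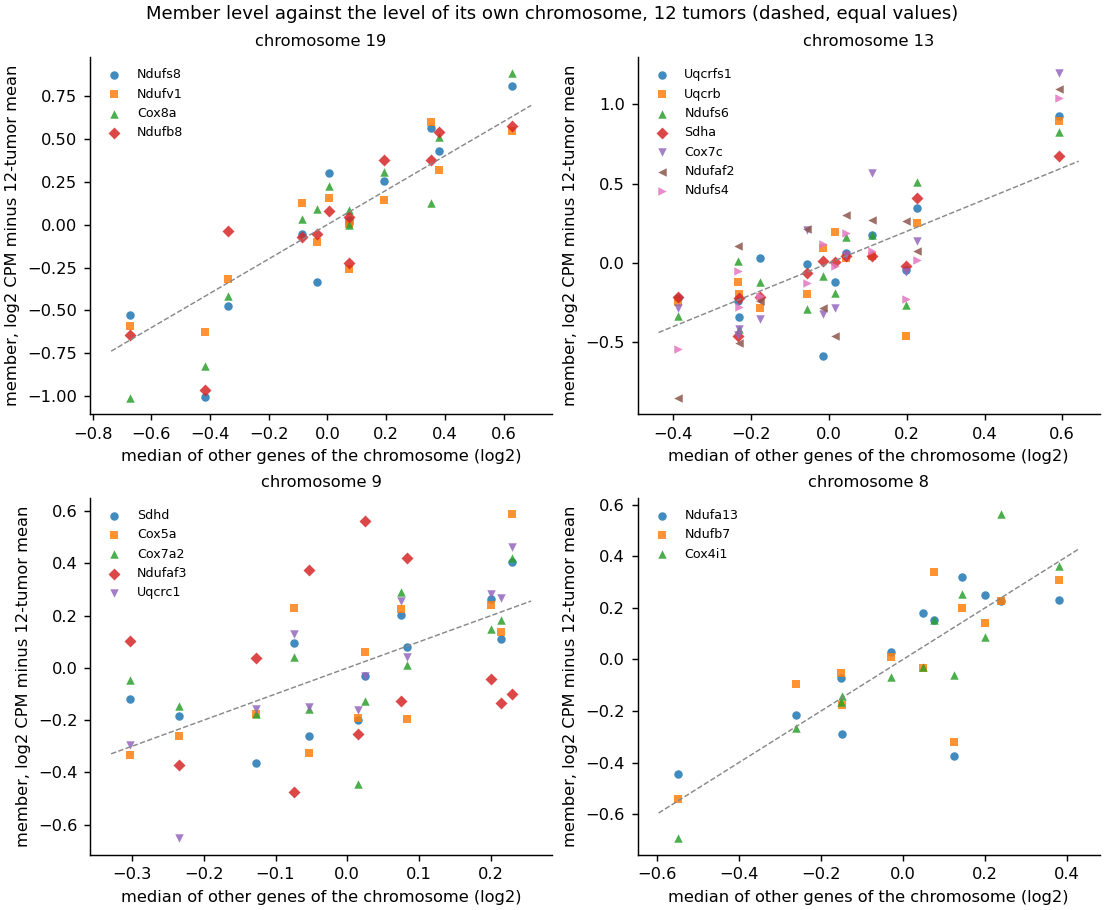
Each point is 1 member in 1 tumor, its log2 CPM minus its mean over the 12 tumors (vertical) against the median of the other genes of its chromosome (horizontal, log2), and the dashed line marks equal values. On chromosomes 19, 13 and 8 members of different complexes fell together along the line, and on chromosome 9 Ndufaf3 did not.

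The promoters of the 4 chromosome 19 members are shown because these genes moved together, and those of Cox5a and Sdhd because they are among the 3 members with the smallest unadjusted p in the doxycycline average. That of Uqcrc1, the other of these 3, is not shown. Each is the 150 bases before the RefSeq start site (GRCm38.p6, 5′ to 3′ on the gene's strand), in lower case with matches to the motifs named after them in capitals. They are at chr19:7217617-7217766, chr19:3912775-3912924, chr19:4012756-4012905, chr19:44555443-44555592, chr9:57521082-57521231 and chr9:50603850-50603999, on the minus strand except Cox5a.
Cox8a: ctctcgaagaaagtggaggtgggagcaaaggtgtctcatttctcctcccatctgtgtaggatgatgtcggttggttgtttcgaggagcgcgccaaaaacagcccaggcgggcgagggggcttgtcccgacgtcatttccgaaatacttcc
Ndufs8: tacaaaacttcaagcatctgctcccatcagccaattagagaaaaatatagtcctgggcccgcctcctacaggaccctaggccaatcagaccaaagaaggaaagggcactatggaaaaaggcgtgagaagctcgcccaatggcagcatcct
Ndufv1: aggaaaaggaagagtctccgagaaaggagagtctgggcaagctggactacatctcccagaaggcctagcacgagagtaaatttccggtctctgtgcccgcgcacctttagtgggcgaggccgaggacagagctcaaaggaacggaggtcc
Ndufb8: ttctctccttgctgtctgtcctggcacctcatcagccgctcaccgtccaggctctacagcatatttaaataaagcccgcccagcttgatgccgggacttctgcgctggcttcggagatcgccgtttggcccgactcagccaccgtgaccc
Cox5a: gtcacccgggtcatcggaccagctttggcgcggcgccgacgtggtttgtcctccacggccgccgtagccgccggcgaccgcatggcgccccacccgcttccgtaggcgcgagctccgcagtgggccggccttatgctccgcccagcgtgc
Sdhd: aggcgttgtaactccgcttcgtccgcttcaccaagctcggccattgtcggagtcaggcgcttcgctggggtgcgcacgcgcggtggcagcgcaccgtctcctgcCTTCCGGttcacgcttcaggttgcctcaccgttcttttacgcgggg

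Motifs were searched on both strands in the 300 bases from 250 before to 50 after the start, which RefSeq gave for 72 members, 70 of them tested. The letters GCGCATGCG, bound by NRF1, were found for 10 of the 70 (14.3%) and 3.32% of 11015 other genes tested, or 2.44% of all 17096 promoters, and with 1 more C at the end for 7 members and 1.85% of the other genes. CCGGAAG, the core bound by GABPA, was found for 16 (22.9%) against 16.6% and 11.8%, AAGATGGCG, bound by YY1, for 6 (8.57%) against 2.82% and 1.95%, and TCAAGGTCA, bound by estrogen-related receptors, for 2 (2.86%) against 0.291% and 0.310%. A strict form of the element bound by PPAR and RXR, AGGTCA repeated after 1 base of any kind, was found for 0 members and for 9 promoters in all (0.0526%). In the 150 bases shown, Sdhd alone had a whole match, to the GABPA core. Sdhd also had 1 match to the estrogen-related receptor motif after its start site. Cox8a had 1 match to the GABPA core that spans its start site, from 5 bases before it, and 1 after it. Ndufs8 had 1 match to this core after its start site, and Ndufv1, Ndufb8 and Cox5a had no match to the motifs searched. Uqcrc1, whose promoter is not shown, had 1 site of the longer NRF1 form. That form reads the same on both strands, so the 2 matches to GCGCATGCG counted there overlap and belong to this 1 site.

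As measured, pairs of members also differed more by chromosome than by complex. With group means removed, pairs on 1 chromosome had a median r of 0.71 within a complex (57 pairs) and 0.65 between complexes (106 pairs). On different chromosomes the median was 0.13 within a complex (1024 pairs) and 0.13 between complexes (2134 pairs), so between chromosomes the values with and without a shared complex were alike. Pairs of other genes had 0.29 on 1 chromosome and -0.015 on different chromosomes. Once the level of the own chromosome was subtracted from each gene, members on different chromosomes had a median r of 0.37 within and 0.40 between complexes, where other genes had -0.0012. Members on 1 chromosome then had 0.51 and 0.34, and other genes -0.0024. The level subtracted was the median of these other genes, with members left out of it. That draws pairs of other genes on 1 chromosome toward 0 by construction, so they are no like background for the members there. In the subtracted values the median over the 82 members was -0.29 in KP tumor 2, where 7 of 82 were above 0, and highest in KPG1-PPARαΔ13 tumor 1 (0.16) and KPG1 tumor 3 (0.15). These correlations are over 12 tumors and across pairs that share genes, and are given as a description.

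**Figure D5:**
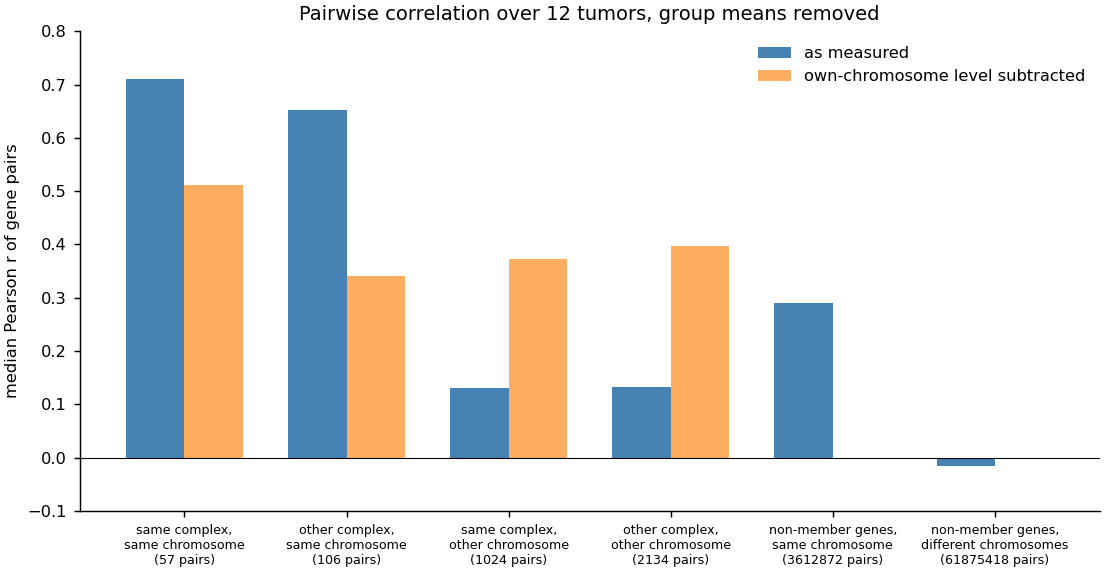
Bars are the median Pearson r of gene pairs over 12 tumors with group means removed, as measured (blue) and after the level of each gene's chromosome was subtracted (orange). Member pairs on 1 chromosome stood at 0.65 to 0.71 as measured against 0.13 on different chromosomes, and after subtraction all 4 kinds of member pairs lay between 0.34 and 0.51 and other genes near 0. The level subtracted is the median of these other genes, which draws their pairs on 1 chromosome toward 0 by construction.

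The comparisons were repeated on levels with the own chromosome's level removed, an alternative chosen after seeing the data. No member was called in any of the 7 comparisons. The median SE of the members' log2 fold changes in the comparisons of 2 groups went from 0.25 to 0.17. Members with an unadjusted p under 0.05 went from 7 to 5 for KP-PPARαΔ13 against KP, from 8 to 5 for KPG1-PPARαΔ13 against KPG1, from 6 to 7 for KPG1 against KP, from 7 to 3 for KPG1-PPARαΔ13 against KP-PPARαΔ13, from 9 to 2 in the interaction, from 7 to 2 for doxycycline averaged over genotypes and from 4 to 3 for the floxed genotype averaged over diets. The share of all genes after the removal was not set beside these counts. Chromosome 9 had a median log2 fold change of 0.35 over its 613 other genes for KPG1-PPARαΔ13 against KPG1, beside 0.34 over its 5 members. There Cox5a went from 0.61 to 0.24 (SE 0.15) and Sdhd from 0.34 to -0.03 (SE 0.11). With group means removed, r with chromosome 9 over the tumors was 0.21 for Cox5a (0.73 as measured) and 0.15 for Cox7a2 (0.57). It was 0.62 for Sdhd (0.73), 0.65 for Uqcrc1 (0.87) and 0.39 for Ndufaf3 (0.07). For KP-PPARαΔ13 against KP the other genes of chromosome 9 had a median of 0.05 and its members one of 0.34. The 2 medians were 0.20 and 0.35 for doxycycline averaged over genotypes, and 0.29 and -0.02 in the interaction. Averaged over both genotypes, Cox5a kept 0.29 (SE 0.11) and Uqcrc1 0.24 (SE 0.09), both at an unadjusted p under 0.05 and an edgeR adjusted p of 0.352 and 0.378. In the interaction, chromosome 19 had a median of -0.85 over 399 other genes and -1.05 over its 4 members, and Ndufv1 went from -0.99 to -0.16 (SE 0.20). Cox6a2 kept its difference (4.01, SE 1.03) and Atp5j less of it (-0.38, SE 0.16). What sets the level of a whole chromosome in a tumor was not tested.

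The tissue-restricted isoforms of complex IV were a small share of their general partners in every tumor. Per length, Cox6a2 was 1.09% to 18.4% of Cox6a1, Cox7a1 2.31% to 6.84% of Cox7a2, Cox4i2, the lung isoform, 1.07% to 3.15% of Cox4i1, Cox6b2, the testis isoform, 0.27% to 2.37% of Cox6b1, and Ndufa4l2 0.24% to 1.90% of Ndufa4. Cox6a2 was at 13.4% to 18.4% in KP tumors 2 and 3 and KPG1-PPARαΔ13 tumors 1 and 2 and at 8.09% in KPG1-PPARαΔ13 tumor 3, and at 5.10% or less in the other 7. Of 8 cardiomyocyte markers, Nppa had no read in any tumor and the sum was 7.41 to 27.3 CPM, lowest in KP tumor 3, where Cox6a2 was highest. The 6 skeletal muscle markers summed to 0.51 to 2.80 CPM. Cox4i2 lay higher without overlap in tumors labelled KPG1-PPARαΔ13 (4.03, 3.39 and 3.72 CPM) than in those labelled KP-PPARαΔ13 (1.58, 2.00 and 2.61 CPM), with a log2 fold change of 0.85 (SE 0.36, edgeR adjusted p = 0.505). The sum of 7 pericyte markers was 61.7 to 77.1 CPM in the former and 69.8 to 129.1 CPM in the latter, and their part in the Cox4i2 values was not tested.

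Genes that work with the chain but fall outside the rule were read from lists. Of 36 assembly factors tested, edgeR called none in any comparison, with 1 higher and 0 lower at an unadjusted p under 0.05 for each of the 2 doxycycline comparisons and medians of 0.02 and 0.03. Of 13 electron carriers, transporters and partners, such as cytochrome c (Cycs), the adenine nucleotide carriers and the voltage-dependent anion channels, none was called, with medians of 0.22 and 0.25 and 9 of 13 above 0 in both. Of 14 regulators tested none was called, and the medians were 0.03 and -0.03. The nuclear receptor gene Esrrg, of this list and named after its values were seen, had 0.34, 8.94 and 4.42 CPM in KP, 0.41, 0.032 and 0.57 CPM in the tumors labelled KP-PPARαΔ13, 0.52, 0.69 and 0.17 CPM in KPG1 and 1.91, 2.21 and 1.42 CPM in KPG1-PPARαΔ13. Its 5 highest tumors were the 5 highest for Cox6a2 (interaction 5.75, SE 1.49, edgeR adjusted p = 0.330).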

How the data were processed

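CD45-negative cells of 12 mouse lung tumors (4 groups of 3, 9 mice) were profiled by poly(A) RNA-seq. The authors made gene counts from the reads with bcl2fastq 2.17, cutadapt 1.4.2, HISAT2 on mm10 and featureCounts 1.4.4, according to the submitters' processing notes and the study's methods. The annotation and the strand setting of the counting were not given in the sources used here, so overlapping and antisense genes may share reads. The authors also deposited a table of normalized log2 CPM values, which was not tested. All 12 single count files equalled the columns of the combined table. Groups followed the labels, and tumors of one mouse are not independent, so p-values measure the spread between these tumors.

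Counts were fitted with edgeR 4.0.16 in R 4.3.3 (filterByExpr, TMM factors, quasi-likelihood F test, 1 coefficient per group over all 12 tumors, 8 residual degrees of freedom, common biological coefficient of variation 0.44). Benjamini-Hochberg adjustment ran over all 16527 genes tested at a threshold of 0.05. Libraries held 25263794 to 32654223 counts, which limits precision for members of a few CPM. Alternatives used limma 3.58.1 and DESeq2 1.42.0. The fits were tested on simulated data. Copies were searched with BLAST+ 2.17.0, and summaries made with pandas 2.3.3 in Python 3.11.15. Promoters came from RefSeq (GRCm38.p6).

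Members and gene lists were chosen with earlier results of these data known. Named were members past the threshold, up to 3 per direction and comparison with the smallest unadjusted p at a mean of 1 CPM or more, members fixed by role, and the highest, lowest, steadiest and most variable member of each complex. Other named members (those set against their chromosome and those with shared or no reads) and Esrrg were chosen after their values were seen.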

Additional observations from a re-analysis of the deposited data

Results flagged for a closer look

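Members were flagged when the tumors of one contrast all moved one way and those of the matching contrast all moved the other way. Cox7c was lower with doxycycline in the Glut1 wild-type tumors, at 5.10 to 5.52 CPM against 5.65 to 7.45 CPM, and higher in the floxed tumors, at 8.39 to 17.1 CPM against 5.80 to 7.96 CPM. The difference between the changes was 1.22 on the log2 scale (SE 0.44, edgeR adjusted p = 0.360). Atp5j was higher with doxycycline in all wild-type tumors and lower in all floxed tumors, and the same 4 groups read the other way gave a gene that was higher in floxed tumors on the regular diet and lower on doxycycline. Both readings are the difference of -0.80 (SE 0.22, edgeR adjusted p = 0.335). In that interaction the 378 other genes of chromosome 16, which holds Atp5j, had a median of -0.45, and the 404 other genes of chromosome 13, which holds Cox7c, one of 0.54.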

How the results depend on the processing

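No member was called by edgeR under any alternative: DESeq2 size factors, upper-quartile factors, the compared groups alone, a mean of at least 20 TPM, no filter on low counts, sex as a covariate, a length and GC trend removed, tumors of one mouse summed, and, chosen after seeing the data, the own chromosome's level removed. It was likewise 0 by limma voom. DESeq2 called 1 member for KPG1-PPARαΔ13 against KPG1, 1 for KPG1-PPARαΔ13 against KP-PPARαΔ13, 2 in the interaction and 1 in the average over genotypes, and the cause was not tested. The share of all genes that DESeq2 called was not set beside these counts. With the own chromosome's level removed, Ndufb10 turned from a negative log2 fold change (-0.16) to 0.029 for the floxed genotype averaged over both diets.

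Without each tumor in turn, 0 to 0 members were called in every comparison, and the members' median log2 fold change ran from 0.01 to 0.16 for KP-PPARαΔ13 against KP, from -0.07 to 0.08 for KPG1-PPARαΔ13 against KPG1, from 0.01 to 0.17 for KPG1 against KP, from -0.02 to 0.10 for KPG1-PPARαΔ13 against KP-PPARαΔ13, from -0.11 to -0.01 in the interaction, from 0.03 to 0.12 for doxycycline and from 0.01 to 0.11 for the floxed genotype averaged. The low ends of both comparisons with KP were without KP tumor 2. With the replicate number as a block, 0 members were called in each comparison and medians lay between -0.05 and 0.12. Same-numbered tumors did not deviate together (18 pairs, r from -0.20 to 0.18, 3 over 0.1), and 6 of 12 tumors correlated best with their own number, so the numbers do not pair the samples.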
